A study of Mus musculus with 6 samples.

Results

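The p53 protein, encoded by *Trp53*, is a transcription factor that is held at a low level by the E3 ligase Mdm2 and its relative Mdm4. After DNA damage or other stress it is stabilized and switches on genes for cell cycle arrest, repair and cell death, *Mdm2* among them, which closes a feedback loop. Its best known target, *Cdkn1a*, encodes p21, an inhibitor of cyclin-dependent kinases, and p53 is known to support the quiescence of hematopoietic stem cells (HSCs). The 10 genes described here are *Trp53*, its regulators *Mdm2* and *Mdm4*, and the classical targets *Cdkn1a*, *Ccng1*, *Phlda3*, *Zmat3*, *Gadd45a*, *Sesn2* and *Trp53inp1*, out of 26216 gene names. They were chosen by symbol, leaving out the Bcl2 family, at a time when their difference between genotypes was already known, so that this difference is given as a description and without a test of its own.

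RNA was sequenced from LT/ST-HSCs, the long-term and short-term stem cells, in 3 *Ltbr*-/- (CD45.2) and 3 Ly5.1 (CD45.1) replicates. *Ltbr*-/- donors lack the lymphotoxin-β receptor in all cells as homozygous mutants with a deletion within the gene and were between 10 and 13 weeks old. Ly5.1 donors have an intact *Ltbr*, carry the CD45.1 form of *Ptprc* and were between 7 and 13 weeks old. Lin-sca1+c-kit+ bone marrow cells (LSKs) of both donors were given together to lethally irradiated Ly5.1/Ly5.2 mice, and the HSCs of both genotypes were sorted 6 weeks later from these mixed chimeras. All samples thus share the irradiated host, and dying cells that bind Annexin-V were excluded in the sort. The cells of 6 chimeras were pooled to 3 replicates, and spread between replicates is spread between such pools.

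The deposited value of a gene is a signal without a unit, taken as 2 to the power of a regularized log, which scales each sample and draws weakly expressed genes towards their mean. Differences of weak genes are therefore understated. The values of *Ltbr* lay between 23.1 and 26.4 in *Ltbr*-/- and between 522 and 564 in Ly5.1 samples, in keeping with the labels. All 11 HSC marker genes were measured, with a summed signal between 18300 and 18980 in *Ltbr*-/- and between 19460 and 20080 in Ly5.1 samples. Of the 11, 10 had a log2 difference below 0. By adjusted p in limma 1 was higher and 2 were lower, against 10.6% and 4.18% of all tested genes. Of the markers of other cells, *Pax5* and *Ebf1* (B cells) and *Cd3e* and *Cd8a* (T cells) had a signal of at most 3 in all samples. The sum of all 8 B cell and plasma cell genes, most of it from *Ighm* and *Igkc*, was 1455 to 1585 in *Ltbr*-/- and 2315 to 2477 in Ly5.1 samples, with 1 gene higher and 2 lower of 5 tested by adjusted p in limma. Granulocyte genes were well above that level and lower in *Ltbr*-/- samples, with 9 of 9 past an adjusted p of 0.05 in limma and a summed signal between 42920 and 43440, against 56260 to 60690 in Ly5.1 samples. The sums of 5 macrophage genes overlapped, at 5777 to 6470 in *Ltbr*-/- and 6365 to 6850 in Ly5.1 samples. By adjusted p in limma, 2 of these genes were higher and 1 lower. The T cell sums overlapped as well, at 29.2 to 30.7 against 29.2 to 31.2. The mast cell, erythroid and megakaryocyte lists had higher sums in *Ltbr*-/- samples, each with genes on both sides of 0. The sum of 5 mast cell and basophil genes ran from 7466 to 8036 against 4068 to 4661 and came mostly from *Cma1* and *Cpa3*, while 2 of the 5 were higher and 1 lower by adjusted p, with a median log2 difference of −0.04. The sum of 4 erythroid genes ran from 2305 to 2565 against 1249 to 1593 and came mostly from *Hba-a1*, the only one of the 4 past the adjusted p. The sum of 4 megakaryocyte genes ran from 11910 to 12630 against 9477 to 10710, with 1 gene higher and 1 lower of 3 tested. The part of other cell types, and of donor age, in the differences below was not tested. In such bulk samples, fewer cells of a type and less RNA per cell cannot be told apart.

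*Cdkn1a* stood apart from the other 9 genes. Its signal was 816, 967 and 1009 in the *Ltbr*-/- replicates and 515, 431 and 539 in the Ly5.1 replicates. Each *Ltbr*-/- value was above each Ly5.1 value, and the means were 931 ± 102 (SD, n = 3) and 495 ± 56.7 (SD, n = 3). The ratio of the means was 1.88, and the log2 difference was 0.91 with a standard error of 0.10. Among 13108 tested genes, *Cdkn1a* ranked 82 from the top by this difference. Leaving out each sample in turn gave log2 differences between 0.82 and 1.01. When samples were centred on the ribosomal protein genes, which moves the median of all tested genes to −0.87, *Cdkn1a* was at 0.05 and thus 0.92 above that median.

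*Trp53* itself (GENCODE M21, GRCm38, chr11:69580359-69591873, plus strand), the most strongly expressed of the 10 genes per length of transcript, had overlapping values in both genotypes. The signal was 2093, 2417 and 2297 in *Ltbr*-/- and 2181, 1995 and 2128 in Ly5.1 samples. The difference was 0.11 on the log2 scale with a standard error of 0.08, and without 1 sample it lay between 0.06 and 0.17. These are mRNA values, and the level of the p53 protein was not part of these data. Expressed as a percent of the *Trp53* signal in the same sample, *Cdkn1a* reached 39.0, 40.0 and 43.9 in *Ltbr*-/- samples. In Ly5.1 samples it reached 23.6, 21.6 and 25.3, without overlap. As *Trp53* differed little, this ratio mostly repeats the difference of *Cdkn1a*.

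**Figure D1:**
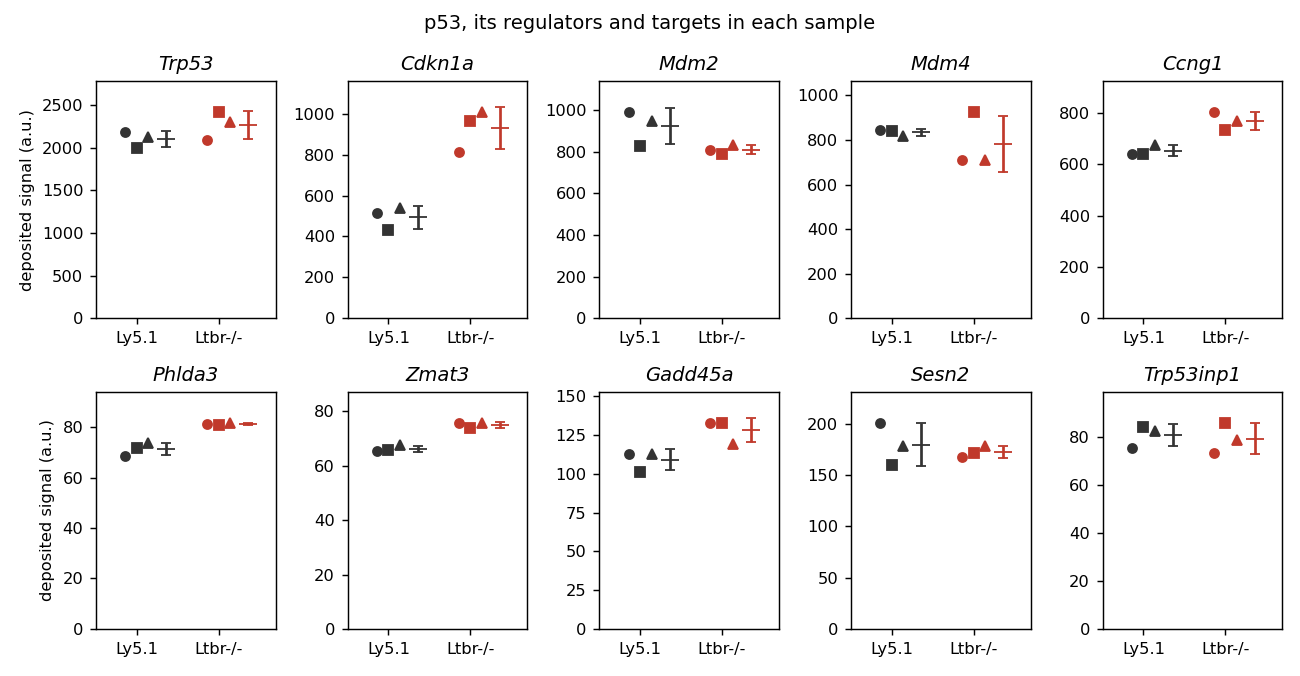
Deposited signal (arbitrary units, axes from 0) of the 10 genes in the 3 Ly5.1 (black) and 3 *Ltbr*-/- (red) samples, with circle, square and triangle for replicates 1, 2 and 3 and the mean ± SD beside them. *Cdkn1a* runs from 431 to 539 in Ly5.1 and from 816 to 1009 in *Ltbr*-/- samples, while *Trp53*, *Mdm2*, *Mdm4*, *Sesn2* and *Trp53inp1* overlap between the genotypes.

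The promoter of *Cdkn1a* is shown here because p53 binds DNA at a pair of half-sites of 10 bases each, and because this gene had the largest difference. RefSeq start windows (GRCm38.p6, from 250 bases before to 50 bases after a start) were searched for the p53 consensus half-site, whose consensus reads the same on both strands, and for 2 half-sites with 0 to 13 bases between them. *Cdkn1a* lies on the plus strand of chromosome 17, from 29090976 to 29100727 in GENCODE M21, and has 2 start windows. The upstream one holds a pair, and the 250 bases before that start (chr17:29090729-29090978, plus strand) are given with both half-sites in capitals.
Cdkn1a: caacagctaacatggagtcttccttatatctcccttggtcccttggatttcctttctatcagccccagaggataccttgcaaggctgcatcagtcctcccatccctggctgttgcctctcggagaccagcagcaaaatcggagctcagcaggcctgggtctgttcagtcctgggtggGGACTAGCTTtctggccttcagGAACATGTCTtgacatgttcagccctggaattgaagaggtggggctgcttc

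The half-sites begin 73 and 51 bases before the upstream start of *Cdkn1a* and do not overlap. Only exact matches to the consensus are in capitals. The 10 bases directly after the half-site at 51 depart from the consensus in their first base alone and are thus in small letters. Which of these stretches p53 binds was not tested. A pair of exact half-sites was found in 24 of 32851 windows of all genes, or 0.0731%. The downstream window of *Cdkn1a* (chr17:29093519-29093818, plus strand), whose start lies within the gene, held none. Distances from that start are larger, and which start was in use in these cells was not tested. Single half-sites were found in the windows of 4 other genes of the 10, each printed with 10 bases on either side and the half-site in capitals.
Trp53: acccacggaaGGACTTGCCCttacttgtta
Mdm2: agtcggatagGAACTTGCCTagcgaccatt
Ccng1: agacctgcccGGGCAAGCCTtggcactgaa
Gadd45a: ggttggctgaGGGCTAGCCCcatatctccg

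These lie at chr11:69580274-69580303 (plus strand), chr10:117710925-117710954, chr11:40755452-40755481 and chr6:67037428-67037457 (minus strand). They start 75, 186, 185 and 40 bases before the gene's start. In all, 5 of the 10 windows of these genes held a half-site, against 8.36% of all windows. The share was 21.8% for other p53 targets outside the Bcl2 family and 0.0% for genes upstream of p53. For cyclins, kinases and genes repressed through the DREAM complex it was 15.8%. Most of the 10 genes were listed because they are known p53 targets, so that their share is a description only. The windows of *Mdm4*, *Phlda3* and *Sesn2* held none, and *Zmat3* and *Trp53inp1* had no entry. Sites outside these windows, or short of an exact match, were not searched for, so that a window without a match does not show that a gene lacks one. A match of letters is a description and does not show that p53 was bound.

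Both inhibitors of p53 had lower means in *Ltbr*-/- samples, with overlapping groups. *Mdm2* (chr10:117688875-117710758, minus strand) had a signal of 807, 788 and 833 in *Ltbr*-/- and of 990, 825 and 948 in Ly5.1 samples, a log2 difference of −0.18 with a standard error of 0.09. The overlap came from Ly5.1 replicate 2. *Mdm4* (chr1:132959484-133030561, minus strand) had a signal of 711, 926 and 711 in *Ltbr*-/- and of 845, 840 and 818 in Ly5.1 samples, a log2 difference of −0.10 with a standard error of 0.10. Here 1 sample, *Ltbr*-/- replicate 2, lay above all others, and without it the difference was −0.23. Although *Mdm2* and *Cdkn1a* are both direct targets of p53, their balance differed between the genotypes. The *Cdkn1a* signal divided by that of *Mdm2* was 1.01, 1.23 and 1.21 in *Ltbr*-/- and 0.52, 0.52 and 0.57 in Ly5.1 samples. Most of this came from *Cdkn1a*, with a log2 difference of 0.91 against −0.18 for *Mdm2*.

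Of the other targets, 4 had small differences without overlap between the groups, each with higher values in *Ltbr*-/- samples. *Ccng1* (chr11:40748552-40755311, minus strand) encodes cyclin G1, which recruits a phosphatase to Mdm2. Its signal was 804, 733 and 770 in *Ltbr*-/- and 641, 641 and 677 in Ly5.1 samples, a log2 difference of 0.23 with a standard error of 0.09. *Phlda3* (chr1:135766119-135769136, plus strand) encodes an inhibitor of AKT. Its signal was 81.2, 80.7 and 81.7 in *Ltbr*-/- and 68.6, 71.6 and 73.6 in Ly5.1 samples, a log2 difference of 0.19 with a standard error of 0.07. *Zmat3* (chr3:32334792-32366014, minus strand) encodes an RNA-binding zinc finger protein. Its signal was 75.7, 73.9 and 75.9 in *Ltbr*-/- and 65.5, 65.9 and 67.5 in Ly5.1 samples, a log2 difference of 0.18 with a standard error of 0.07. *Gadd45a* (chr6:67035096-67037457, minus strand) encodes a small stress protein that takes part in arrest and repair. Its signal was 133, 133 and 120 in *Ltbr*-/- and 113, 102 and 113 in Ly5.1 samples, a log2 difference of 0.24 with a standard error of 0.08. In these 4 genes the *Ltbr*-/- mean was between 1.13 and 1.18 times the Ly5.1 mean, against 1.88 times for *Cdkn1a*.

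The remaining 2 targets did not separate the genotypes. *Sesn2* (chr4:132492032-132510501, minus strand), which encodes a sestrin that restrains mTORC1 and is also induced by Atf4, had a signal of 167, 172 and 179 in *Ltbr*-/- and of 201, 160 and 178 in Ly5.1 samples, a log2 difference of −0.05 with a standard error of 0.09. *Trp53inp1* (chr4:11156431-11174379, plus strand), which encodes a nuclear protein that promotes p53-dependent cell death, had a signal of 73.5, 86.0 and 78.6 in *Ltbr*-/- and of 75.6, 84.3 and 82.7 in Ly5.1 samples. Its log2 difference was −0.03 with a standard error of 0.08. For both, the mean difference changed sign with the sample left out, from −0.13 to 0.03 for *Sesn2* and from −0.09 to 0.03 for *Trp53inp1*.

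All 10 genes passed the filter on low values, which kept the upper 50% of gene names by mean. A gene was called where its adjusted p from limma was below 0.05 and it differed by 1.5 times or more. By this measure 1 of the 10 was called higher, *Cdkn1a*, and 0 lower, where 2.78% of all tested genes were called, 2.72% higher and 0.061% lower. The same gene alone was past the adjusted p without regard to fold, against 14.8% of all genes, 10.6% higher and 4.18% lower. The groups did not overlap in 5 of 10, all with higher values in *Ltbr*-/- samples, against 30.4% of all genes, or 17.0% in that direction and 13.5% in the other. The median log2 difference of the 10 genes was 0.14, and that of all tested genes −0.01. As the genes were chosen with these differences known, their counts are a description only. Centring on the ribosomal protein genes put 9 of the 10 genes below 0, *Trp53*, *Ccng1*, *Phlda3*, *Zmat3* and *Gadd45a* changing sign. Relative to the median of all genes under that centring, these 5 lay between 0.12 and 0.25 and thus on the same side as before.

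**Figure D2:**
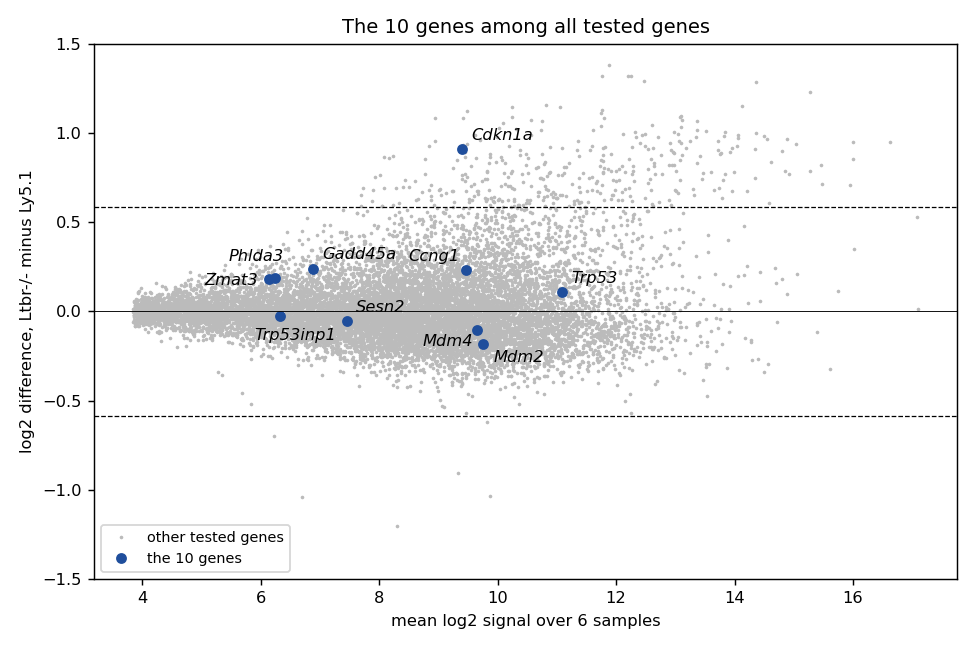
Log2 difference (*Ltbr*-/- minus Ly5.1) against the mean log2 signal over 6 samples for 13108 tested genes (grey) and the 10 genes (blue), with dashed lines at a fold of 1.5 and 2 genes outside the axis of ±1.5. *Cdkn1a* at 0.91 is the only one of the 10 outside the dashed lines, and the cloud narrows at low signal, where *Zmat3*, *Phlda3* and *Trp53inp1* lie. Centring on ribosomal protein genes would move the whole cloud down to a median of −0.87.

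Replicates of these genes varied to different degrees. The coefficient of variation ran from 0.646% for *Phlda3* to 15.9% for *Mdm4* in *Ltbr*-/- and from 1.59% for *Zmat3* to 11.6% for *Sesn2* in Ly5.1 samples. *Cdkn1a* had 10.95% and 11.5%, so that its samples were among the more variable although the groups stood apart. *Phlda3*, the lowest in *Ltbr*-/-, and *Zmat3*, the lowest in Ly5.1 samples, had a signal of at most 81.7 in all samples. The regularized log draws weakly expressed genes towards their mean, and its part in these small variations was not tested. *Trp53inp1*, with a signal from 73.5 to 86.0, varied more, by 7.92% in *Ltbr*-/- and 5.74% in Ly5.1 samples.

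Levels were compared between genes as signal per kilobase of the longest coding transcript in GENCODE M21. In Ly5.1 samples (mean ± SD, n = 3) *Trp53* came first with 1126 ± 51.2 per kilobase, followed by *Mdm2* with 293 ± 27.2, *Cdkn1a* with 238 ± 27.3 and *Ccng1* with 186 ± 5.78. *Mdm4* with 117 ± 2.05 and *Gadd45a* with 89.3 ± 5.42 lay in the middle. The lowest levels were those of *Sesn2* with 51.7 ± 6.01, *Phlda3* with 49.7 ± 1.75, *Trp53inp1* with 15.0 ± 0.859 and *Zmat3* with 8.502 ± 0.135. Of the neighbours in this order, *Sesn2* and *Phlda3* overlapped between samples and the others did not. In *Ltbr*-/- samples *Cdkn1a* came second, with 447 ± 49.0 (SD, n = 3) per kilobase and no overlap with *Mdm2* at 257 ± 7.15. There *Phlda3* came before *Sesn2* without overlap, and *Mdm4* and *Gadd45a* were the neighbours that overlapped. The transcript lengths used in the deposited quantification are not given in the sources used here, so that the order depends on the lengths chosen.

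**Figure D3:**
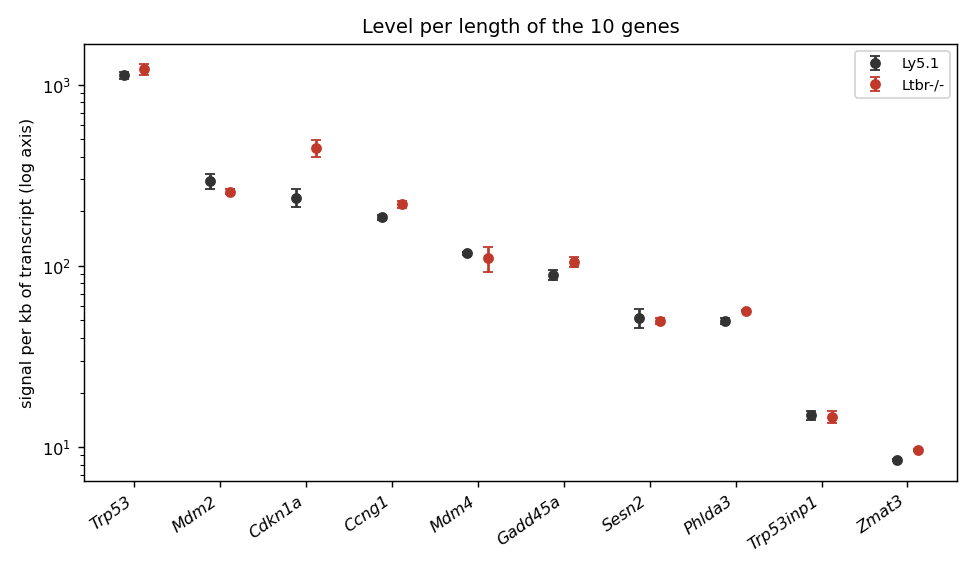
Signal per kilobase of the longest coding transcript (log axis) of the 10 genes, mean ± SD over 3 samples, in Ly5.1 (black) and *Ltbr*-/- (red) samples, ordered by the Ly5.1 mean. *Trp53* lies highest with 1126 and 1215, *Zmat3* lowest with 8.502 and 9.64, and *Cdkn1a*, at 238 in Ly5.1 and 447 in *Ltbr*-/- samples, passes *Mdm2* in the order.

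Position in the genome touches the reading of 2 of these genes. *Phlda3* and *Mdm4* lie on chromosome 1, at 2.29 and 5.03 Mb from *Ptprc*. The donors differ by design at this locus and at *Ltbr* on chromosome 6. The other 8 genes are on other chromosomes or, for *Gadd45a* on chromosome 6, at 58.3 Mb from *Ltbr*. Each genotype came from its own donor line, so that genotype at *Ltbr* and donor line cannot be told apart for any of these genes. Of windows of 76 bases, the length of the reads, 3.65% in *Mdm4* transcripts, 1.38% in *Cdkn1a* and 1.04% in *Trp53* were shared with transcripts of other genes on the same strand, and less in the other genes. Antisense transcripts covered 13.8% of the windows of *Gadd45a* and 6.94% of those of *Cdkn1a*, and the strand setting of the quantification is not given in the sources used here. The antisense gene at *Gadd45a*, *E230016M11Rik*, had a signal of 217, 217 and 242 in *Ltbr*-/- and of 209, 203 and 193 in Ly5.1 samples. These values also lay higher in *Ltbr*-/- samples without overlap, and their part in the *Gadd45a* values was not tested.

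The wider set of p53 targets held genes that moved in both directions. Of 48 further targets outside the Bcl2 family, 44 were tested, and 2 were called, *Dcxr* higher and *Ptprv* lower, against 2.72% of all tested genes called higher and 0.061% lower. By adjusted p alone, 7 rose and 2 fell, against 10.6% and 4.18% of all genes. The groups did not overlap in 12 with higher and 6 with lower values, against 17.0% and 13.5%. The median log2 difference of the 44 was 0.04. Directions here and in the following groups are those without centring on ribosomal protein genes, which moved all genes towards lower values and left 39 of the 44 called. *Ptprv*, which encodes a receptor phosphatase that takes part in p53-dependent arrest, fell from 1239, 1117 and 1031 in Ly5.1 to 733, 689 and 782 in *Ltbr*-/- samples. The log2 difference of −0.62 had a standard error of 0.09 (adjusted p = 2.33e-06 from limma). It was under the fold threshold without *Ltbr*-/- replicate 2 (−0.57) or Ly5.1 replicate 1 (−0.55). The gene lies 2.93 Mb from *Ptprc*. *Dcxr*, which encodes a reductase of xylulose and carbonyl compounds, rose from 638, 702 and 849 in Ly5.1 to 1234, 1454 and 1623 in *Ltbr*-/- samples. The log2 difference of 0.98 had a standard error of 0.10 (adjusted p = 1.14e-09 from limma). Without a filter on low values the adjusted p was 0.0507.

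Within this wider set, the targets were grouped by role, and each count stands against 10.6% of all tested genes that were higher and 4.18% that were lower by adjusted p. Counts at an unadjusted p under 0.05 stand against 2060 higher and 1495 lower of 13108 tested genes. Of 10 tested arrest genes, 2 rose and 2 fell by adjusted p in limma. Besides *Ptprv*, these were the mitotic genes *Psrc1* at 0.48 and *Gtse1* at 0.32 and the kinase gene *Plk2* at −0.29, named here after their values were seen. Of 8 DNA repair genes none passed, with 1 higher and 0 lower at an unadjusted p under 0.05. The largest log2 difference was that of the nuclease gene *Ercc5*, at 0.24 (adjusted p = 0.0739 from limma). Of 8 tested cell death genes 1 rose, the death receptor gene *Fas*, at 0.26 (adjusted p = 0.0174 from limma), and *Perp* and *Eda2r* were too low to be tested. Of 11 metabolic genes 4 rose and 0 fell, *Dcxr* and, named after their values were seen, *Gls2* at 0.34, *Ddit4* at 0.34 and *Ak1* at 0.27. Of 5 tested genes that feed back on p53 none passed, with 0 in either direction at an unadjusted p under 0.05, and the largest difference was that of *Pml* at −0.13 (adjusted p = 0.340 from limma). *Gfi1* and *Ndn*, p53 targets known from HSC quiescence, were at −0.26 (adjusted p = 0.0666 from limma) and −0.01 (adjusted p = 0.934 from limma).

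Apart from these, 3 targets of the Bcl2 family were tested, and *Pmaip1* was too low. *Bax*, which opens the outer mitochondrial membrane, was at 0.93 (standard error 0.08, adjusted p = 7.67e-12 from limma), beside 0.91 for *Cdkn1a*. *Bbc3*, which encodes PUMA, was at 0.44 (adjusted p = 5.65e-04 from limma) and *Bid* at 0.03 (adjusted p = 0.904 from limma). *Bid* lies 4.39 Mb from *Ltbr*.

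**Figure D4:**
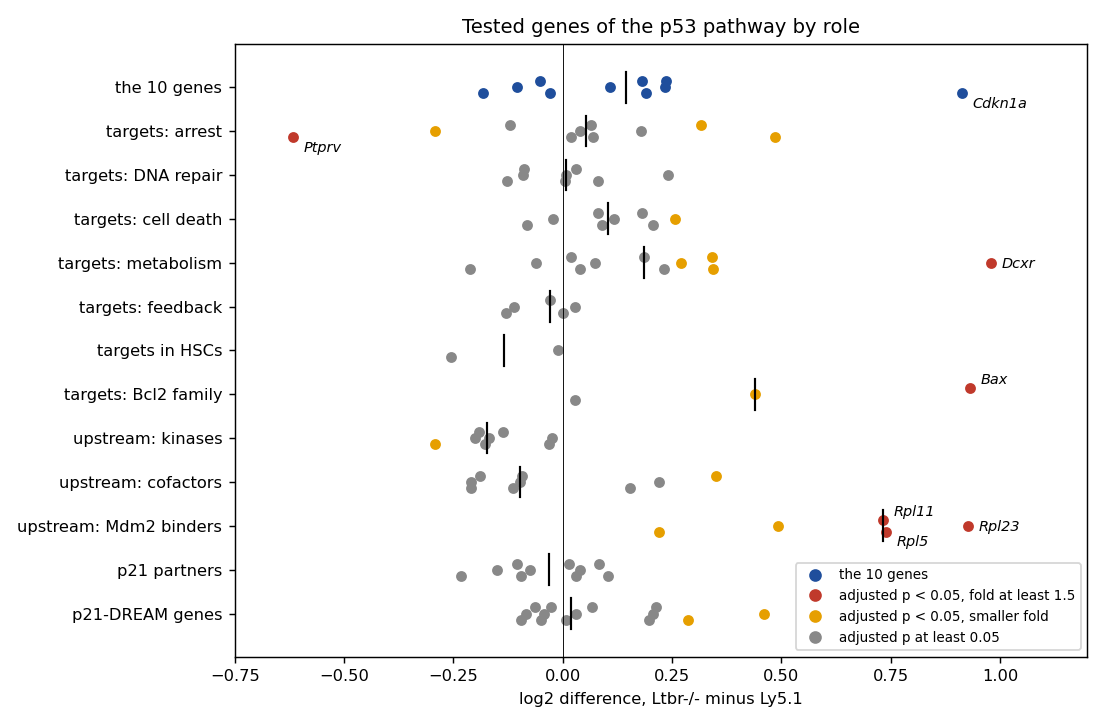
Log2 difference (*Ltbr*-/- minus Ly5.1) of each tested gene of the p53 pathway, grouped by role, with a black bar at the median of each group and colour for the test in limma (the 10 genes all in blue, whether called or not). Called genes are named; *Cdkn1a*, *Dcxr*, *Bax* and 3 ribosomal protein genes lie to the right and *Ptprv* to the left, while the bars of most groups lie near 0. Centring on ribosomal protein genes would move all points to the left, to a median of −0.87 over all tested genes.

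Upstream of p53, 3 of 22 tested genes were called higher, all of them ribosomal protein genes, and 0 lower. These counts stand against 2.72% and 0.061% of all tested genes. By adjusted p 6 rose and 1 fell, against 10.6% and 4.18%. All 8 genes for kinases and DNA damage sensing had values below 0, with a median of −0.17, as had 7029 of 13108 tested genes, and 1 of them passed, *Atm*, the kinase activated by DNA breaks, at −0.29 (adjusted p = 0.0299 from limma). Of 9 cofactor genes 1 rose, *Ppp1r13l*, which encodes the p53 inhibitor iASPP, at 0.35 (adjusted p = 0.00913 from limma). All 5 genes for proteins that bind and inhibit Mdm2 rose by adjusted p, but centring on ribosomal protein genes put *Rpl5* at −0.12, *Rpl11* at −0.13 and *Rpl23* at 0.07. As reported, the 3 called genes were *Rpl5* at 0.74, *Rpl11* at 0.73 and *Rpl23* at 0.93 (adjusted p = 4.44e-12, 6.51e-10 and 9.89e-15 from limma). After quantile normalization they were at 0.36, 0.58 and 0.55, under the fold threshold. Centring on 77 ribosomal protein genes moved the median of all tested genes from −0.01 to −0.87. Ribosomal protein genes were thus higher in *Ltbr*-/- samples as a class, not only those that bind Mdm2. They have near-identical pseudogenes, between which reads may have been split, so that their values are uncertain.

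Downstream of p21, no gene was called among 24 tested cyclins, kinases and genes repressed through the DREAM complex in limma, a count near the 2.78% called among all tested genes. At an unadjusted p under 0.05, 5 were higher and 1 lower, as were 2060 and 1495 of 13108 tested genes. By adjusted p 2 rose and 0 fell, against 10.6% and 4.18% of all tested genes. These were genes of mitosis in the DREAM list, *Cdc20* at 0.46 (adjusted p = 8.30e-05 from limma) and, named after its values were seen, *Ccnb2* at 0.29. Among the partners of p21, *Cdk2* had the largest difference, −0.23 (adjusted p = 0.0892 from limma). The other Cip/Kip inhibitors differed from *Cdkn1a* in their values. *Cdkn1b*, which encodes p27, had a signal of 318, 276 and 296 in *Ltbr*-/- and of 306, 312 and 308 in Ly5.1 samples, a log2 difference of −0.06 (adjusted p = 0.733 from limma). This gene lies 9.61 Mb from *Ltbr*. *Cdkn1c*, which encodes p57, was at −0.11 (adjusted p = 0.421 from limma). The difference between these genes and *Cdkn1a* was not tested.

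The tested genes whose log2 values were most like those of *Cdkn1a* over the 6 samples were *Nme1*, *Ube2s*, *Atp5e*, *Sap30l* and *Ift57*, with Pearson correlations between 0.996 and 0.999. Most of this likeness is the difference between the genotypes, which the 6 points share, with log2 differences between 0.35 and 0.78 in these 5 genes. None of the other 9 genes was among them.

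**Figure D5:**
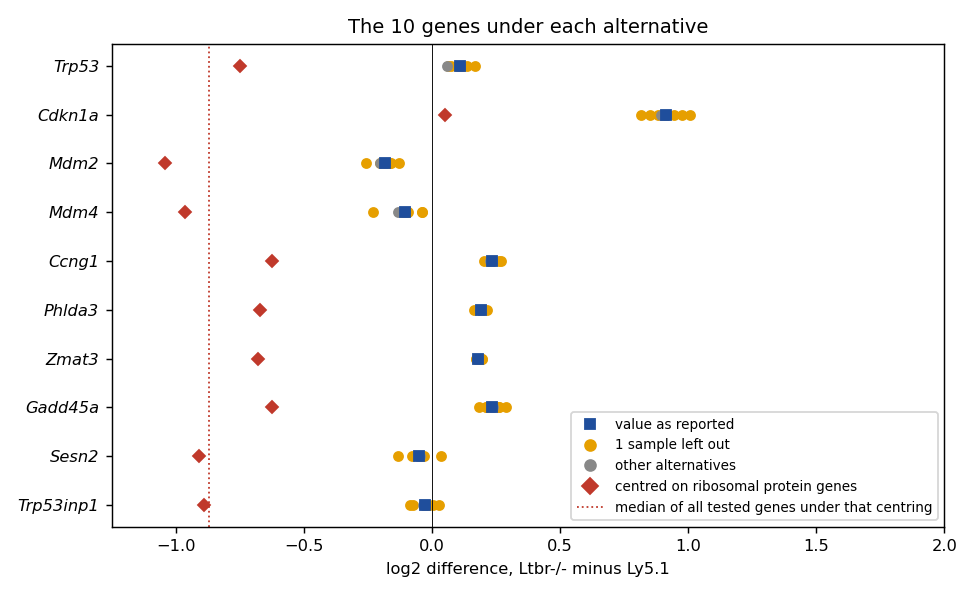
Log2 difference (*Ltbr*-/- minus Ly5.1) of the 10 genes as reported (blue square), with 1 sample left out (orange), under centring on ribosomal protein genes (red diamond) and under the other alternatives (grey); the dotted line at −0.87 is the median of all tested genes under that centring. *Cdkn1a* keeps values between 0.82 and 1.01 except under that centring, where it is at 0.05, and *Sesn2* and *Trp53inp1* cross 0 with a sample left out.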

How the data were processed

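RNA-seq of 3 *Ltbr*-/- and 3 Ly5.1 samples of LT/ST-HSCs was used. The authors assembled reads with SeqMan NGen and quantified them with ArrayStar; they deposited 1 signal per gene and sample, taken as 2 to the power of the regularized log that the study's methods name. The submitters' processing notes name GRCm38 and mm10. Depth cannot be told from these files, so that no interval or detection limit is given and precision rests on 3 replicates. The files list 26595 values per sample; for names listed more than once, only the entry of highest mean entered. Log2 values of the upper 50% of names (13108) entered a linear model per gene in limma 3.58.1 (R 4.3.3), its variances moderated along the mean, with Benjamini-Hochberg adjustment over all of them. On simulated data, 100% of 200 of 13108 genes changed by 1 on the log2 scale were recovered and 0 others called. Smaller changes were not simulated, so that their recovery is not known. The members and lists were chosen by hand with earlier results of these data known. Named are the 10 genes, called genes of each list or else those with the largest difference, all of 3 short lists, and the 5 genes most like *Cdkn1a*. Positions and lengths are from GENCODE M21, promoters from RefSeq; 8 of the 10 genes matched a promoter. The alternatives tried were a block for the replicate number, other filters, scalings, variance models, folds and handling of repeated names, and leaving out each sample.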

Additional observations from a re-analysis of the deposited data

How the results depend on the processing

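Of the alternatives, centring on ribosomal protein genes changed most: 11926 genes were then called, all lower, with 9 of the 10 genes, 39 of the other p53 targets, 17 upstream genes and 22 cell cycle genes among them. By construction it turned values that lay near or above 0: *Trp53* −0.75, *Ccng1* −0.625, *Phlda3* −0.67, *Zmat3* −0.68, *Gadd45a* −0.625, *Bid* −0.83, *Bbc3* −0.42, *Fas* −0.60, *Ercc5* −0.62, *Cdc20* −0.40, *Cebpb* −0.36, *Ppp1r13l* −0.51, *Atf5* −0.17, *Phgdh* −0.24, *Rpl5* −0.12, *Rpl11* −0.13, *Cd79a* −0.24 and *Adgre1* −0.027. Without the fold threshold the counts were 1936 genes in all, 9 other targets, 7 upstream and 2 cell cycle genes; with a fold of at least 2 they were 42 in all and 0 of the 10 genes, the other targets and the upstream genes. Quantile normalization left 0 upstream genes, and the absence of a filter 1 other target. With each sample left out, the counts ranged from 342 to 407 in all and from 1 to 2 for the other targets, and stayed at 1 of the 10 genes, 3 upstream and 0 cell cycle genes. *Bid* then ranged from −0.099 to 0.147, changing sign without *Ltbr*-/- replicate 1 (−0.015) or Ly5.1 replicate 3, and *Ndn* from −0.037 to 0.032, changing sign without *Ltbr*-/- replicate 1 or Ly5.1 replicate 2 (0.004). With the replicate number as a block, 364 genes were called, as many as without it, and 1 of the 10 genes, 2 other targets, 3 upstream and 0 cell cycle genes. Samples of the same number correlated at 0.03, −0.005 and 0.09 in their deviations from the group means, so that the numbers were not taken to pair the samples. The cause of the other changes was not tested.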

Other observations

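Factors other than p53 that act on *Cdkn1a* transcription were listed as well. Of 18 tested, 0 were called in limma, against 2.78% of all tested genes, with 2 higher and 4 lower by adjusted p, against 10.6% and 4.18%. *Cebpb*, a myeloid transcription factor, had a signal of 402, 405 and 385 in *Ltbr*-/- and of 257, 276 and 311 in Ly5.1 samples, a log2 difference of 0.50 (standard error 0.10, adjusted p = 1.51e-04 from limma). *Smad3*, which carries TGF-β signals, had a signal of 379, 370 and 339 in *Ltbr*-/- and of 496, 451 and 487 in Ly5.1 samples, a log2 difference of −0.40 (standard error 0.09, adjusted p = 0.00209 from limma).

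*Sesn2* is also a target of Atf4, the factor of the integrated stress response. Of 7 tested genes of that pathway, 5 rose by adjusted p and 0 fell, against 10.6% and 4.18% of all tested genes. In limma 3 were called higher, against 2.72%, *Asns* at 0.86, *Atf5* at 0.69 and *Phgdh* at 0.62, except under centring on ribosomal protein genes, where they were at 0.002, −0.17 and −0.24 against a median of −0.87. *Sesn2* itself was at −0.05. Called genes of the marker lists were *Cma1* (mast cells) at 1.32, *Hba-a1* (erythroid cells) at 0.99, *Adgre1* (macrophages) at 0.83 and, among B cell genes, *Cd79a* at 0.62, *Ighm* at −1.04 and *Igkc* at −1.21.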
